A study of Mus musculus with 24 samples.

Results

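Hnf4a, Foxa1, Foxa2, Foxa3, Cebpa, Cebpb, Nr1i2, Nr1i3 and Ppara encode transcription factors and nuclear receptors that set the gene programme of hepatocytes, and they make up 9 of the 24015 gene rows in the deposited count matrix. They were chosen by symbol, and all 9 were found and passed the filter on low counts in every comparison. The animals were female B6C3F1 mice, labelled 5 to 6 weeks of age, which carried no genetic change named in the labels. For 21 days they received by gavage either corn oil alone (control) or furan, a small volatile liver toxicant, at 8 mg/kg body weight per day in corn oil. Livers were collected 4 h after the last dose, and every liver was split into a piece that was snap-frozen (fresh-frozen) and 2 that were embedded in paraffin after 18 h or 3 wk in formalin (FFPE). Fresh-frozen libraries were available from 3 control animals (02, 04 and 06) and 3 furan animals (41, 43 and 44), and each FFPE group had 4 control (02, 03, 04 and 06) and 4 furan animals (41, 42, 43 and 44). Replicates were therefore separate animals, and pieces with the same number came from the same liver. The comparisons asked how furan changed the transcripts of these factors and whether the change could be read in fixed tissue.

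HNF4A is a nuclear receptor that occupies the regulatory regions of many genes for coagulation factors, apolipoproteins and amino acid metabolism. FOXA1, FOXA2 and FOXA3 are forkhead proteins that open chromatin for other liver factors, while C/EBP-alpha (Cebpa) maintains metabolic genes and C/EBP-beta (Cebpb) is induced in injury and the acute phase. The pregnane X receptor PXR (Nr1i2) and the constitutive androstane receptor CAR (Nr1i3) respond to foreign compounds by switching on cytochrome P450 genes, and PPAR-alpha (Ppara) switches on fatty acid oxidation in fasting. Nuclear receptors of the last 3 genes bind DNA together with RXR-alpha (Rxra).

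The promoters of the factors that passed the test of furan against control (Nr1i3 and Hnf4a), and of Cebpa, the next nearest to the threshold in fresh-frozen livers, are shown as the 250 bases before each start that RefSeq gives on GRCm38.p6. Entries were found for all 9 genes, in 12 windows. Capitals mark a match to 1 of 5 motifs searched on both strands, which were chosen with these sequences already seen. Each line reads 5′ to 3′ along the gene's own strand, which is + for all 3 genes.
Nr1i3, chr1:171213720-171213969: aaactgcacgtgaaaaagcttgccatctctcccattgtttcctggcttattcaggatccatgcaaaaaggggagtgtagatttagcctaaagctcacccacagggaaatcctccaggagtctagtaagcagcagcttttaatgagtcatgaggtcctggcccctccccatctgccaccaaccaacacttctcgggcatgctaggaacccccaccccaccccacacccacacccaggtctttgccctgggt
Hnf4a upstream start, chr2:163506607-163506856: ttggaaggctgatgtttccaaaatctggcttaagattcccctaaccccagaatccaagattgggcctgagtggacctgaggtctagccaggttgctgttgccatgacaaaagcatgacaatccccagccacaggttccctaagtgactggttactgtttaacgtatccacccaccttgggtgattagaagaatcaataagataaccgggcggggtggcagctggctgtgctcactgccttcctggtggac
Hnf4a downstream start, chr2:163546905-163547154: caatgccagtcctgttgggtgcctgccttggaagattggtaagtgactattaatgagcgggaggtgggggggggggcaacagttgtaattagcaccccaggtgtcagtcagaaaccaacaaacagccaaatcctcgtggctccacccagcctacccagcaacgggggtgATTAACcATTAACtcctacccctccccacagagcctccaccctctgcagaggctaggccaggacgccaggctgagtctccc
Cebpa, chr7:35119043-35119292: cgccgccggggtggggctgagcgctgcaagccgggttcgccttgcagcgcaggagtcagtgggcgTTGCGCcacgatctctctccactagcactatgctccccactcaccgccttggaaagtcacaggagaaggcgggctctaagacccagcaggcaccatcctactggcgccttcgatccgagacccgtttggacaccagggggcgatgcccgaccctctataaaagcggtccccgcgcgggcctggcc

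The downstream Hnf4a start, which is the one used in adult liver, held 2 copies of ATTAAC, at 81 and 74 bases before the start. ATTAAC is the reverse strand of GTTAAT, 1 arm of the palindrome bound by HNF1 proteins, and 6.43% of 32851 windows of the same length held it. Cebpa held 1 copy of the C/EBP core TTGCGC at 185 bases before its start, and 5.34% of windows held that motif. Foxa1 held 1 copy of the forkhead motif TGTTTAC, on the reverse strand at 141 bases before its start, against 3.17% of windows. In Foxa2, 1 of 3 starts held the HNF1 motif, at 176 bases. No window of the 9 genes held the HNF4 motif CAAAGTCCA (0.384% of windows) or the nuclear receptor direct repeat DR1 (0.0335%), and the Nr1i3 window held none of the 5. The count table sums all starts of a gene, so the 2 Hnf4a starts could not be measured separately.

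Libraries of fresh-frozen pieces held 33101755 to 58048387 counts, those of fixed pieces 16269854 to 22494012 after 18 h and 3666173 to 11780691 after 3 wk in formalin. Labelled RNA integrity was above 8.9 for frozen RNA and between 1.3 and 2.4 for FFPE RNA. Frozen and fixed pieces were also extracted with different kits, and 1 section was used after 18 h but 2 after 3 wk, so these cannot be told apart from fixation. The ribosomal RNA gene Rn45s took at most 0.520% of counts in any fresh-frozen library and 4.85% to 16.5% in FFPE libraries, apart from control animal 06 after 18 h, where it took 37.3%. Hepatocyte markers were present throughout, with the 9 markers in the table summing to between 82955 and 156310 counts per 1000000 (CPM) and none at 0, and none of them passed the test of furan in any kind of piece.
In control livers the 9 factors spanned a wide range of levels. Levels are given as CPM scaled by the trimmed mean of M-values (TMM), and between genes as CPM per kilobase of the longest transcript matched to RefSeq. On the per-kilobase scale in fresh-frozen controls (n = 3), Nr1i3 had 239 ± 41.4 (SD), Ppara 196 ± 17.7, Hnf4a 193 ± 10.6 and Cebpa 188 ± 4.76. The libraries of each neighbouring pair among these 4 overlapped, so their order did not exceed the spread between animals. Nr1i2 followed at 39.2 ± 5.65 per kilobase, then Cebpb at 25.2 ± 5.85, Foxa3 at 17.3 ± 2.63 and Foxa2 at 16.3 ± 3.47, with Foxa1 lowest at 8.98 ± 0.460. Of these last 5, the libraries of Foxa3 and Foxa2 overlapped and the other neighbours did not. The place of Nr1i3 depended on the length used: the matched transcript has 1414 nt, and with all 4414 nt of annotated exon the level was 76.6 ± 13.3 per kilobase.

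**Figure D1:**
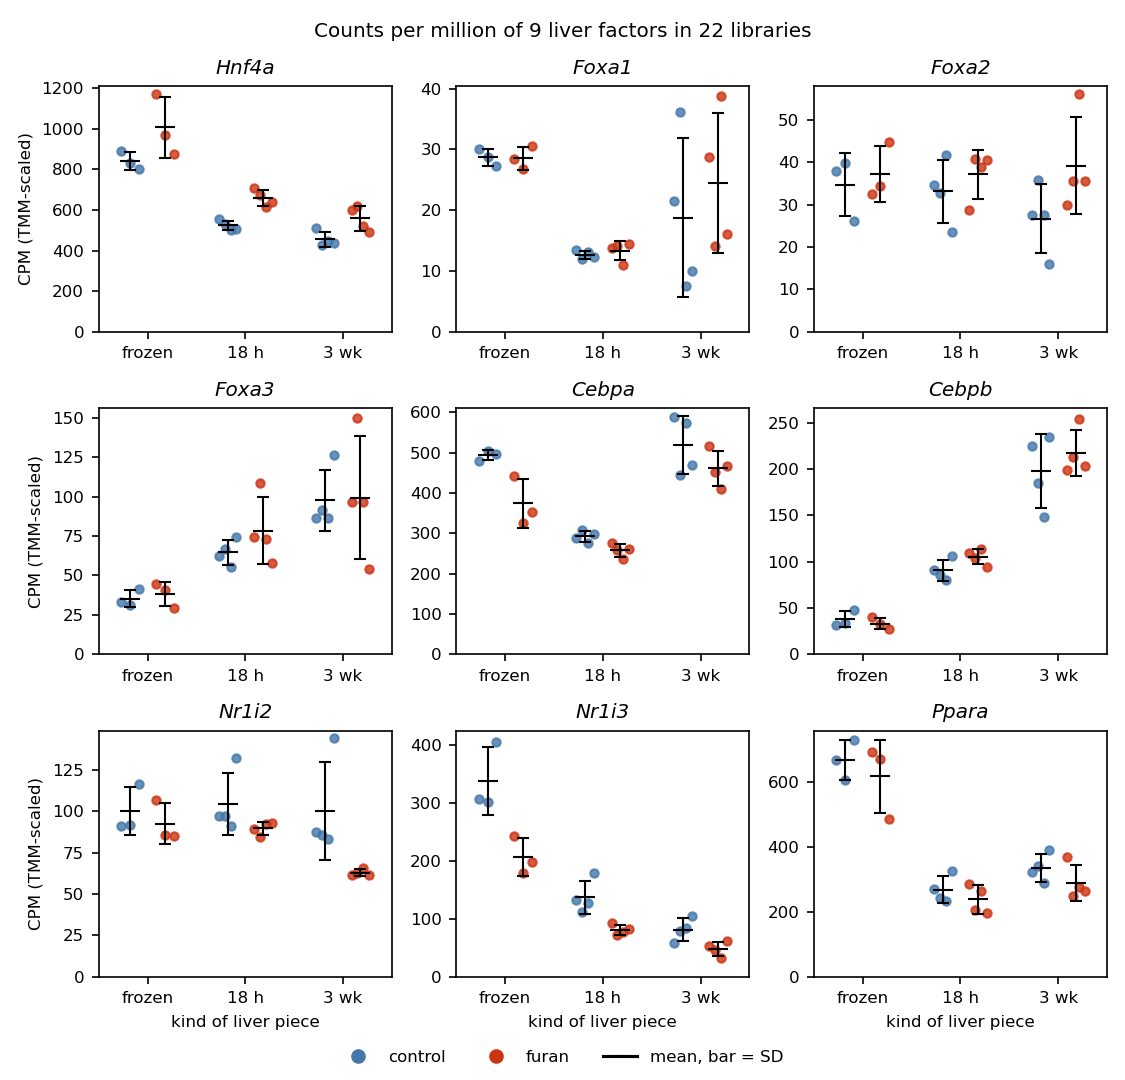
TMM-scaled CPM (vertical axis, linear and starting at 0) of the 9 factors in 22 libraries, by kind of liver piece (fresh-frozen, 18 h or 3 wk in formalin) and treatment (blue control, red furan); points are animals and bars show the mean and SD. Nr1i3 was lower in every furan library than in every control library of the same kind in fresh-frozen and 18 h pieces, and Hnf4a was higher in every furan library in 18 h pieces.

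Few of these genes passed the test of furan used, edgeR's quasi-likelihood F test with Benjamini-Hochberg adjustment over all tested genes and a threshold of 0.05. A gene that did not pass is not shown to be unchanged. In fresh-frozen livers 1 of 9 passed, Nr1i3, which fell, while 15.7% of all 13794 tested genes passed in either direction and 7.47% passed downwards. In FFPE 18 h livers 2 of 9 passed, Hnf4a upwards and Nr1i3 downwards, against 8.39% of 12832 genes. In FFPE 3 wk livers 0 of 9 passed by edgeR, against 0.821% of 12064 genes, which were 99 genes. By DESeq2 1 of 9 passed, and 353 genes in all. At an unadjusted p under 0.05 edgeR gave 3 of the 9 in those livers (Hnf4a, Nr1i2 and Nr1i3), and 10.9% of all genes. The median log2 fold change of the 9 was -0.09 in fresh-frozen, 0.08 in 18 h and 0.07 in 3 wk pieces, beside -0.01, -0.01 and 0.02 over all genes tested. Groups did not overlap for 2 of 9 genes in fresh-frozen livers (37.6% of all genes), 2 of 9 after 18 h (15.4%) and 1 of 9 after 3 wk (8.81%). The pieces came from the same livers, so the 3 comparisons are not independent of each other.

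**Figure D2:**
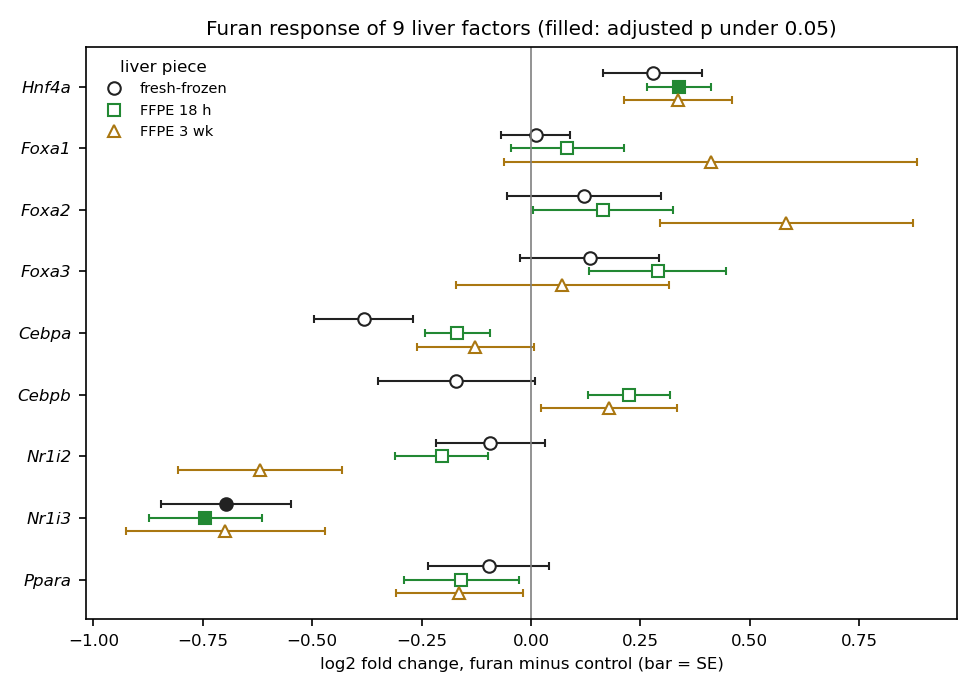
Log2 fold change of furan over control (horizontal axis, bars are the standard error) for the 9 factors in fresh-frozen livers (3 against 3 animals) and in livers fixed for 18 h or 3 wk (4 against 4 each); filled symbols passed an adjusted p of 0.05. Nr1i3 lay between -0.74 and -0.70 in all 3 kinds of piece, and Hnf4a between 0.28 and 0.34.

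Hnf4a was higher with furan in FFPE 18 h livers, by 26.5%. Its levels there were 556, 529, 504 and 509 CPM in the controls and 706, 673, 616 and 638 CPM in the furan livers. All 4 furan libraries lay above all 4 controls, and the log2 fold change was 0.34 ± 0.07 (SE; edgeR adjusted p = 0.0124). In fresh-frozen livers the controls had 892, 829.7 and 802 CPM and the furan livers 1174, 969.9 and 879 CPM. One furan animal, 44, lay below the highest control there, and the log2 fold change of 0.28 ± 0.11 did not pass (edgeR adjusted p = 0.136; 95% interval before adjustment 0.02 to 0.54). After 3 wk the controls had 511, 430.2, 449 and 437 CPM and the furan livers 603, 619, 523 and 492 CPM. These groups overlapped through furan animal 44 and control animal 02, and the log2 fold change of 0.34 ± 0.12 did not pass (edgeR adjusted p = 0.284). The 18 h call was lost with only the 6 animals that also had fresh-frozen libraries (adjusted p = 0.0678) and in 1 model of all 6 groups (adjusted p = 0.0857), with log2 fold changes of 0.33 and 0.34.

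Of 22 tested target genes of HNF4A, 5 fell, 1 rose and 16 did not pass in fresh-frozen livers, where 15.7% of all genes passed and 7.47% fell. The median log2 fold change of the list was -0.16 against -0.01 for all genes. Those that fell were Ces1f, a liver carboxylesterase (-0.60 ± 0.08, edgeR adjusted p = 0.00372), Otc, the ornithine carbamoyltransferase of the urea cycle (-0.51 ± 0.08, 0.00711), the coagulation factor genes F7 and F9 (-0.54 ± 0.09 and -0.41 ± 0.09), and Slc10a1, the bile acid importer (-0.53 ± 0.13). The gene that rose was Apoc2, the cofactor of lipoprotein lipase, from 56.4 ± 3.71 to 109.9 ± 6.87 CPM, a log2 fold change of 0.98 ± 0.08 (edgeR adjusted p = 0.000674). After 18 h the counts were again 5 lower and 1 higher, with Apoc2 at 0.88 ± 0.07 and F10 in the place of F9. Of all genes 4.47% fell and 3.92% rose there. The 18 h call of Otc was lost with only the 6 animals also fresh-frozen (-0.37, adjusted p = 0.0843). In 3 wk pieces only Ces1f of the 22 passed (-0.70 ± 0.14, edgeR adjusted p = 0.0294), where 0.821% of all genes passed. Its call was lost when control animal 02, 03 or 04 or furan animal 41, 42 or 44 was left out (-0.72 to -0.60, adjusted p = 0.0814 to 0.130), without the 2 shallowest libraries (-0.80, 0.0964) and with only the 6 animals (-0.70, 0.213). Apoc2 passed after 3 wk in 6 of 17 other settings (0.47 to 0.80 over the 17) and Otc in 3 of 17 (-0.56 to -0.38). Other genes of this list were not recomputed under other settings.

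Nr1i3, the gene of CAR, was lower with furan by 38.3% in fresh-frozen and by 40.3% in FFPE 18 h livers. The fresh-frozen controls had 306, 302 and 405 CPM and the furan livers 242, 178 and 197 CPM. No furan library reached the lowest control, and the log2 fold change was -0.70 ± 0.15 (edgeR adjusted p = 0.0199). After 18 h in formalin the controls had 132, 112, 127 and 178 CPM and the furan livers 92.4, 72.3, 77.8 and 81.9 CPM. The groups again did not overlap, with a log2 fold change of -0.74 ± 0.13 (edgeR adjusted p = 0.00372). After 3 wk the controls had 58.2, 78.1, 84.4 and 105 CPM and the furan livers 52.6, 46.9, 31.7 and 61.2 CPM. Furan animal 44 lay above control animal 02, and a log2 fold change of -0.70 ± 0.23 did not pass (edgeR adjusted p = 0.204). In fresh-frozen livers the call was lost without furan animal 43 (-0.59, adjusted p = 0.0773), without furan animal 44 (-0.66, adjusted p = 0.0719) and in 1 model of all 6 groups (-0.71, adjusted p = 0.128).

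The count of Nr1i3 cannot be read as that gene alone. Its exons overlap those of Tomm40l, which encodes a protein of the mitochondrial outer membrane import channel family, on the opposite strand. The overlap covers 936 of the 1414 nt of the matched Nr1i3 transcript (66.2%), and the libraries do not mark strand, so reads in this stretch cannot be told apart. Tomm40l itself fell with furan in every kind of piece. Its fresh-frozen levels were 265, 258 and 356 CPM in controls and 194, 160.2 and 158 CPM with furan, a log2 fold change of -0.76 ± 0.14 (edgeR adjusted p = 0.0122). It fell by 0.89 ± 0.11 on the log2 scale after 18 h (edgeR adjusted p = 0.000464) and by 0.98 ± 0.15 after 3 wk (edgeR adjusted p = 0.00615), with no overlap between groups in either. Its call was lost in fresh-frozen livers without furan animal 43 (-0.70, adjusted p = 0.0574) or 44 (-0.70, 0.0513), and after 3 wk with only the 6 animals also fresh-frozen (-0.92, 0.0754) or without the 2 shallowest libraries (-1.01, 0.0732). With formalin the 2 genes parted: in controls Nr1i3 averaged 338 CPM in fresh-frozen, 137 in 18 h and 81.4 in 3 wk pieces, whereas Tomm40l averaged 293, 525 and 551 CPM. How much each gene contributed to the counts of the other was not tested.

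**Figure D3:**
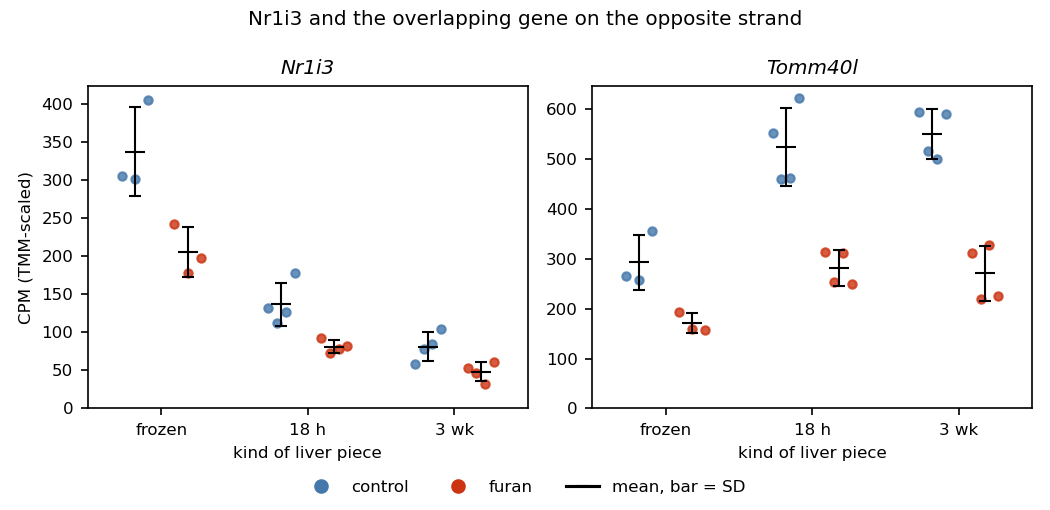
TMM-scaled CPM (vertical axes, from 0) of Nr1i3 and of Tomm40l, which overlaps it on the opposite strand, in each library by kind of piece and treatment (blue control, red furan; bars are mean and SD). Both were lower with furan in the 3 kinds of piece, while from fresh-frozen to fixed controls Nr1i3 went from 338 to 137 and 81.4 and Tomm40l from 293 to 525 and 551.

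Markers of sinusoidal endothelial cells moved in the same direction as Nr1i3. In fresh-frozen livers 4 of the 6 markers fell (Stab2, Oit3, Clec4g and Kdr), after 18 h 2 of 6 (Stab2 and Oit3) and after 3 wk 0 of 6 by edgeR. Of all genes 7.47%, 4.47% and 0.522% fell in these comparisons. The markers were not recomputed under other settings. The summed level of the 6 markers was 301 to 309 CPM in fresh-frozen controls and 195 to 245 CPM with furan, 302 to 327 and 215 to 255 CPM after 18 h, and 335 to 416 and 272 to 301 CPM after 3 wk. None of the 6 was at 0 in any group. The part of this shift in the results for the 9 factors was not tested, and in whole liver fewer cells of a type and less RNA per cell cannot be told apart. Of the markers of Kupffer cells, cholangiocytes, stellate cells, lymphocytes and skeletal muscle, none passed the test of furan in any kind of piece. Kupffer cell markers summed to between 187 and 707 CPM, highest in control animal 04 in each kind of piece. Muscle markers reached 326 CPM in a control and 518 CPM in a furan library after 3 wk, against at most 0.392 CPM in fresh-frozen libraries.

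Nr1i2, the gene of PXR, did not pass in any kind of piece. Fresh-frozen controls had 91.3, 92.0 and 117 CPM and furan livers 107, 85.7 and 85.1 CPM, which overlapped, with a log2 fold change of -0.09 ± 0.12. After 18 h the controls had 97.2, 97.1, 91.0 and 132 CPM and the furan livers 89.5, 84.5, 92.2 and 92.9 CPM, again overlapping, at -0.20 ± 0.11. After 3 wk every furan library, at 61.5, 63.0, 65.6 and 61.7 CPM, lay below every control, at 87.3, 85.8, 83.2 and 145 CPM. This difference, -0.62 ± 0.19 on the log2 scale, did not pass with edgeR (adjusted p = 0.164) and passed with DESeq2 (adjusted p = 0.0484) and in 1 model of all 6 groups (adjusted p = 0.00610). That model had no term for the animal, so pieces of 1 liver counted as separate libraries. It took the spread from all kinds of piece together, and called 2030 genes after 3 wk against 99 in the fit of 3 wk pieces alone. Within a library the ratio of Nr1i3 to Nr1i2 counts needs no scaling. Its log2 was 1.75 ± 0.04 (SD, n = 3) in fresh-frozen controls and 1.15 ± 0.08 with furan, 0.39 ± 0.12 and -0.15 ± 0.13 after 18 h (n = 4), and -0.29 ± 0.28 and -0.43 ± 0.45 after 3 wk.

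Target genes shared by PXR and CAR moved in both directions. Of 25 tested in fresh-frozen livers 5 rose and 5 fell, with a median of -0.18 against -0.01 for all genes. Of all genes 8.21% rose and 7.47% fell. The largest rise was that of Cyp3a41a, a female-predominant cytochrome P450, from 16.8 ± 2.22 to 59.6 ± 14.2 CPM (1.85 ± 0.17, edgeR adjusted p = 0.00126), a call that was lost in 1 model of all 6 groups (1.84, adjusted p = 0.112). Its family has close copies that share reads, so this value is uncertain, as is that of Cyp3a44 (0.60 ± 0.11). Aldh1a7 and Aldh1a1, which encode aldehyde dehydrogenases, rose by 0.63 ± 0.10 and 0.56 ± 0.10, and Abcc2, the canalicular conjugate exporter, by 0.51 ± 0.11. Ces2a, a carboxylesterase, fell by 0.63 ± 0.11 (edgeR adjusted p = 0.0104), as did the close copies Cyp2c54, Cyp2c37 and Cyp2c50, by 0.73, 0.35 and 0.36, and Papss2, which makes the sulfate donor, by 0.43. In the single model Ces2a was lost in fresh-frozen (-0.64, adjusted p = 0.0674) and 18 h livers (-0.47, 0.129). The usual reporters of the 2 receptors did not pass: Cyp3a11, for PXR, had 0.24 ± 0.15 and Cyp2b10, for CAR, 0.09 ± 0.28 in fresh-frozen livers. Under other settings Cyp3a11 passed upwards in 6 of 16 after 18 h (0.23 to 0.38 over the 16). After 3 wk it passed upwards in 3 of 17 (0.41 to 0.67), but in none of 13 in fresh-frozen livers. Cyp2b10 passed in no setting for any kind of piece. After 18 h 3 rose (Aldh1a1, Aldh1a7 and Cyp3a44) and 4 fell of 24 tested (Ces2a, Papss2, Cyp2b13 and Cyp2b9), and after 3 wk 0 of 24 passed by edgeR. Of all genes 8.39% passed after 18 h and 0.821% after 3 wk. Under other settings after 3 wk, Aldh1a7 passed in 6 of 17 (0.54 to 0.80 over the 17) and Ces2a in 3 of 17 (-0.98 to -0.65). Apart from these 2, Cyp3a41a and the reporters, genes of this list were not recomputed under other settings.

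None of the 3 forkhead genes passed in any kind of piece. Foxa1 ranged from 27.2 to 30.1 CPM in fresh-frozen controls and from 26.7 to 30.5 CPM with furan, a log2 fold change of 0.01 ± 0.08. Its 95% interval before adjustment, -0.17 to 0.19, was the narrowest of the 9 in fresh-frozen livers. After 3 wk Foxa1 spread from 7.53 to 36.1 CPM among controls and from 14.2 to 38.8 CPM with furan, and its interval widened to between -0.59 and 1.42. Foxa2 had 37.9, 39.9 and 26.2 CPM in fresh-frozen controls and 32.5, 34.5 and 44.7 CPM with furan, at 0.12 ± 0.18, and had 0.17 ± 0.16 after 18 h and 0.58 ± 0.29 after 3 wk. Foxa3 had 33.0, 31.5 and 41.4 CPM in fresh-frozen controls and 44.6, 40.6 and 29.6 CPM with furan, at 0.13 ± 0.16, and had 0.29 ± 0.16 and 0.07 ± 0.24 in the fixed pieces. All of these groups overlapped.

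Cebpa was the member nearest to the threshold in fresh-frozen livers without passing it. The controls had 480.5, 505 and 496 CPM and the furan livers 443, 326 and 353 CPM, which did not overlap. The log2 fold change was -0.38 ± 0.11, 23.3% lower, with an edgeR adjusted p of 0.0550 (DESeq2 adjusted p = 0.0108; edgeR without furan animal 41, -0.50, adjusted p = 0.0167). After 18 h the controls had 289, 308, 275 and 298 CPM and the furan livers 277, 259, 237 and 260.3 CPM, at -0.17 ± 0.07 (edgeR adjusted p = 0.188). Furan animal 41 there lay just above the lowest control. After 3 wk the groups overlapped, at 445 to 589.7 CPM in controls and 411 to 517 CPM with furan (-0.13 ± 0.13).

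Cebpb did not pass either. Fresh-frozen controls had 31.5, 34.1 and 47.9 CPM and furan livers 39.9, 32.4 and 27.2 CPM, at -0.17 ± 0.18. After 18 h the controls had 91.0, 85.4, 80.3 and 106 CPM and the furan livers 109, 103, 113 and 94.5 CPM, at 0.22 ± 0.09 (edgeR adjusted p = 0.165). Control animal 06 lay among the furan values there, and without it the log2 fold change was 0.30 and passed (adjusted p = 0.0326). After 3 wk the value was 0.18 ± 0.16. Tmem189 overlaps 312 nt of the single Cebpb exon on the opposite strand, 20.7% of it. The sign for Cebpb in fresh-frozen livers was not fixed by these data, since it was 0.11 after thinning all libraries to the smallest total.

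Among 21 target genes of C/EBP and FOXA proteins, 2 fell and 1 rose in fresh-frozen livers, with a median of -0.10 against -0.01 for all genes. Of all genes 7.47% fell and 8.21% rose. Orm1, an acute-phase glycoprotein, went from 248 ± 31.5 to 167 ± 10.1 CPM (-0.55 ± 0.10, edgeR adjusted p = 0.0128), and Pck1, which commits oxaloacetate to gluconeogenesis, from 3376 ± 591 to 2218 ± 177 CPM (-0.59 ± 0.14, 0.0256). Igfbp1, a secreted binding protein of insulin-like growth factors, rose from 21.9 ± 5.10 to 66.9 ± 42.1 CPM (1.63 ± 0.45, 0.0445), and its call was lost with robust dispersions (adjusted p = 0.141), in 1 model of all 6 groups (0.188), after thinning to the smallest total (0.0540) and when control animal 02, 04 or 06 or furan animal 41 or 43 was left out (1.11 to 1.78, adjusted p = 0.0750 to 0.122). Orm1 was lost without furan animal 43 (-0.49, adjusted p = 0.0557) and in the single model (-0.56, 0.146), and Pck1 without 41, 43 or 44 (-0.64 to -0.54, adjusted p = 0.0630 to 0.0940). After 18 h 5 of the 21 rose, namely Saa1, Saa2, Afp, Adh1 and Igfbp1, and Pck1 fell, while 3.92% of all genes rose and 4.47% fell. There Pck1 was lost without furan animal 44 (-0.37, adjusted p = 0.0566) and in the single model (-0.42, 0.0590). Igfbp1 was lost there with robust dispersions (adjusted p = 0.165), in the single model (0.159), with only the 6 animals also fresh-frozen (0.0793) and without control animal 03 or 04 or furan animal 41 or 43 (adjusted p = 0.0768 to 0.0936, with the lowest log2 fold change, 0.98, without 41). After 3 wk 0 of 21 passed by edgeR, against 0.821% of all genes. Over 17 other settings there, Orm1 passed in 4 (-0.75 to -0.55), Igfbp1 in 3 (0.88 to 1.63) and Pck1 in 2 (-0.39 to -0.27).

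Ppara showed no difference past the threshold. Fresh-frozen controls had 669.6, 608 and 729 CPM and furan livers 694, 673 and 488 CPM, at -0.10 ± 0.14. Furan animal 44 alone lay below the controls. After 18 h the controls had 270.3, 244, 232 and 327 CPM and the furan livers 287, 205, 265 and 197 CPM (-0.16 ± 0.13), and after 3 wk the value was -0.16 ± 0.15, with overlap in both.

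The median log2 fold change of 34 PPAR-alpha target genes in fresh-frozen livers was -0.16, against -0.01 for all genes. Of these 34 genes 3 rose and 0 fell by edgeR, while 8.21% of all genes rose and 7.47% fell. The 3 were Fgf21, a fasting hormone of the liver (2.11 ± 0.823 to 7.74 ± 4.32 CPM, 1.91 ± 0.41), Pdk4, a kinase that turns off pyruvate oxidation (9.46 ± 3.38 to 32.7 ± 24.6 CPM, 1.82 ± 0.51), and Cidec, a lipid droplet protein (2.19 ± 0.380 to 4.51 ± 1.27 CPM, 1.06 ± 0.22). In 1 model of all 6 groups all 3 calls were lost, with adjusted p of 0.437 for Fgf21, 0.348 for Pdk4 and 1 for Cidec. The call of Pdk4 was also lost with DESeq2 (adjusted p = 0.0523), with robust dispersions (0.143) and when control animal 02, 04 or 06 or furan animal 41 or 43 was left out (1.04 to 2.12, adjusted p = 0.0641 to 0.110), that of Fgf21 without control animal 04 (1.83, 0.0587) and that of Cidec without control animal 02 (0.95, 0.0511) and after thinning (1.13, 0.128). The reporters Cyp4a10 and Cyp4a14, which encode fatty acid hydroxylases, did not pass, at -0.11 ± 0.20 and -0.38 ± 0.22. Under other settings Cyp4a14 passed downwards after 18 h in 2 of 16 (-0.75 to -0.41 over the 16), and Cyp4a10 passed in none. After 18 h Fgf21 and Cidec rose and 5 of the 34 fell (Acaa1b, Acaa1a, Mgll, Acot1 and Ech1), while 3.92% of all genes rose and 4.47% fell. Cidec was lost there without control animal 03 or 04 or furan animal 41 or 44 (0.93 to 1.26, adjusted p = 0.0748 to 0.124). In the single model Fgf21 (1.64, adjusted p = 0.350) and Cidec (1.27, 0.616) were lost after 18 h, and Fgf21 also after thinning (1.39, 0.0647). Acaa1b, a peroxisomal thiolase, was the 1 gene that passed after 3 wk (-0.90 ± 0.18, edgeR adjusted p = 0.0294). Of all genes 0.821% passed there and 0.522% fell, and Acaa1b was not recomputed under other settings. Over 17 other settings after 3 wk, Pdk4 passed in 3 (1.51 to 2.56) and Fgf21 in 1 (2.31 to 3.92).

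Some factors that work with the 9 passed in fresh-frozen livers, where 15.7% of all tested genes passed, 8.21% upwards and 7.47% downwards. Of 22 partner transcription factors of the liver, 3 fell and 1 rose in fresh-frozen livers. Nfia, of the nuclear factor I family, fell by 0.47 ± 0.07 (edgeR adjusted p = 0.00630), Klf15, a fasting-responsive zinc finger factor, by 0.44 ± 0.11, and Cebpg, a dimer partner of C/EBP proteins, by 0.28 ± 0.06, while Zbtb20, a repressor of Afp, rose by 0.53 ± 0.15. Among 30 other nuclear receptors 2 fell and 0 rose by edgeR: Rxra, the shared partner of CAR, PXR and PPAR-alpha, from 719 ± 37.5 to 572 ± 25.7 CPM (-0.31 ± 0.08, edgeR adjusted p = 0.0351), and Thra, a thyroid hormone receptor (-0.35 ± 0.09, 0.0402). Among 14 coregulators the acetyltransferase genes Crebbp and Ep300 rose by 0.74 ± 0.08 and 0.47 ± 0.07, as did Ncoa1 and Ncoa2 by 0.28 ± 0.06 and 0.29 ± 0.08, and the coactivator gene Ppargc1b fell by 0.50 ± 0.10. In 1 model of all 6 groups the fresh-frozen calls of Crebbp (0.73), Ep300 (0.46) and Thra (-0.36) were lost, each with an adjusted p of 1. Those of Ppargc1b (adjusted p = 0.911), Cebpg (0.793), Klf15 (0.408) and Rxra (0.181) were lost there too. Thinning to the smallest total also ended the calls of Thra (adjusted p = 0.225), Cebpg (0.103), Klf15 (0.0914), Ppargc1b (0.0669) and Rxra (0.0664). Several of these calls were lost when 1 library was left out, and those of Zbtb20, Ncoa1 and Ncoa2 were not recomputed under other settings. Rxra and Thra each passed in 1 of 6 fits with a library left out, Rxra without control animal 04 and Thra without control animal 02, and had adjusted p from 0.0557 to 0.113 and from 0.0647 to 0.141 in the others, at -0.33 to -0.27 and -0.39 to -0.29. Cebpg was lost without control animal 02 or furan animal 41, 43 or 44 (-0.29 to -0.25, adjusted p = 0.0531 to 0.0685), Klf15 without furan animal 41, 43 or 44 (-0.44 to -0.39, 0.0991 to 0.128) and Ppargc1b without 43 (-0.48, 0.0654). After 18 h Nfia (-0.43 ± 0.09), Klf15 (-0.44 ± 0.09) and Ppargc1b (-0.88 ± 0.17) passed again, with Srebf1, of lipid synthesis, in addition (-0.49 ± 0.12), and 0 of the 30 receptors passed by edgeR. Of all genes 8.39% passed there. In the single model the 18 h calls of Klf15 (-0.44, adjusted p = 0.206) and Ppargc1b (-0.89, 0.0754) were lost. Crebbp had 0.09 ± 0.36 and Ep300 0.07 ± 0.16 after 18 h. Without control animal 06, Crebbp had 0.72 ± 0.19 there and passed (edgeR adjusted p = 0.0246), whereas in 6 of 16 other settings it lay below 0. After 3 wk none of the 3 lists had a gene past the threshold by edgeR on those pieces alone, where 0.821% of all genes passed. Ppargc1b, which fell in the other pieces, lay above 0 there, at 0.48 to 0.93 over 17 other settings, and passed in none of them. Ep300 had 0.97 to 1.53 there. It passed only in the single model (1.31, adjusted p = 0.00755), as did Rxra (-0.26, 0.0462).

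The difference between the furan response in fixed and in fresh-frozen pieces was tested as an interaction. For 18 h pieces 0 of the 9 factors and 0% of 13739 genes passed by edgeR, and 3.31% of genes had an unadjusted p under 0.05. DESeq2 called 1 gene and edgeR with the animal as a block 2, none of them among the 9. For 3 wk pieces the numbers were 0 of 9 and 0% of 13156 genes, with 4.48% at an unadjusted p under 0.05, and DESeq2 called 19 genes, again none of the 9. The response of Nr1i3 differed by -0.04 ± 0.22 after 18 h (95% interval -0.49 to 0.42) and by 0.02 ± 0.29 after 3 wk (-0.60 to 0.64). That of Cebpb differed by 0.41 ± 0.21 after 18 h (-0.03 to 0.85), and that of Nr1i2 by -0.51 ± 0.24 after 3 wk (-1.02 to 0.01). These intervals come from fits without a term for the animal, although pieces of 1 liver are paired, so their width leaves the pairing out. They hold differences as large as the response of Hnf4a itself, so equal responses are not shown.

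In control livers 7 of 9 factors differed between 18 h and fresh-frozen pieces, near the 68% of all 13034 genes that did, and 7 of 9 did not overlap (68.3% of genes). Cebpb was 1.37 ± 0.16 and Foxa3 0.98 ± 0.13 higher on the log2 scale, and Ppara (-1.21 ± 0.12), Nr1i3 (-1.19 ± 0.16), Foxa1 (-1.06 ± 0.09), Cebpa (-0.64 ± 0.07) and Hnf4a (-0.57 ± 0.08) were lower. Foxa2 (0.06 ± 0.20) and Nr1i2 (0.17 ± 0.14) did not pass. For 3 wk against fresh-frozen pieces 5 of 9 passed, against 26.2% of 12145 genes, and 5 of 9 did not overlap (44.2%). Cebpb was 2.45 ± 0.22 and Foxa3 1.53 ± 0.19 higher, and Nr1i3 (-1.99 ± 0.19), Ppara (-0.93 ± 0.12) and Hnf4a (-0.81 ± 0.11) were lower. Cebpa, lower after 18 h, had 0.14 ± 0.13 after 3 wk, and the 2 comparisons share the same fresh-frozen controls. The order of levels shifted with this: per kilobase in controls, Hnf4a led after 18 h at 120.4 ± 5.49 and Cebpa after 3 wk at 198 ± 27.6, with Cebpb next at 132 ± 26.5 in the latter. The log2 ratio of Cebpb to Cebpa counts in a library was -3.73 ± 0.31 in fresh-frozen, -1.70 ± 0.16 in 18 h and -1.40 ± 0.40 in 3 wk control pieces, and -3.50 ± 0.18, -1.30 ± 0.17 and -1.09 ± 0.29 with furan.

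The same animal was highest in all 3 kinds of piece in 8 of 18 combinations of a factor and a treatment arm, and the same animal was lowest in 5 of 18. Without TMM factors, on CPM of the total count (a scale chosen after seeing the data), these were 3 and 4 of 18. On the TMM scale control animal 06 had the highest level among controls in all 3 kinds of piece for 5 of 9 factors, Foxa3, Cebpb, Nr1i2, Nr1i3 and Ppara, and the lowest for Foxa2. On CPM of the total count it was highest in all 3 kinds for 0 of 9. Its 18 h library had a TMM factor of 0.616 with 37.3% of counts in Rn45s, and these counts are part of the total, which lowers all other genes there. In both fresh-frozen and 3 wk pieces control animal 06 was still highest on that scale for Foxa3, Nr1i2, Nr1i3 and Ppara. For Cebpb it was highest in fresh-frozen but not in 3 wk pieces. On the TMM scale control animal 02 was highest for Hnf4a in all 3, and control animal 04 lowest for Ppara. Among furan animals, 41 was highest for Cebpa and Ppara and lowest for Foxa2 in all 3 kinds of piece, 43 was lowest for Cebpa, and 44 lowest for Foxa3. These are 3 pieces of 1 liver each and count as 1 animal. Without control animal 06, the fresh-frozen log2 fold change of Nr1i3 was -0.54 (adjusted p = 0.0308), that of Nr1i2 0.03 and that of Cebpb 0.04.

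**Figure D4:**
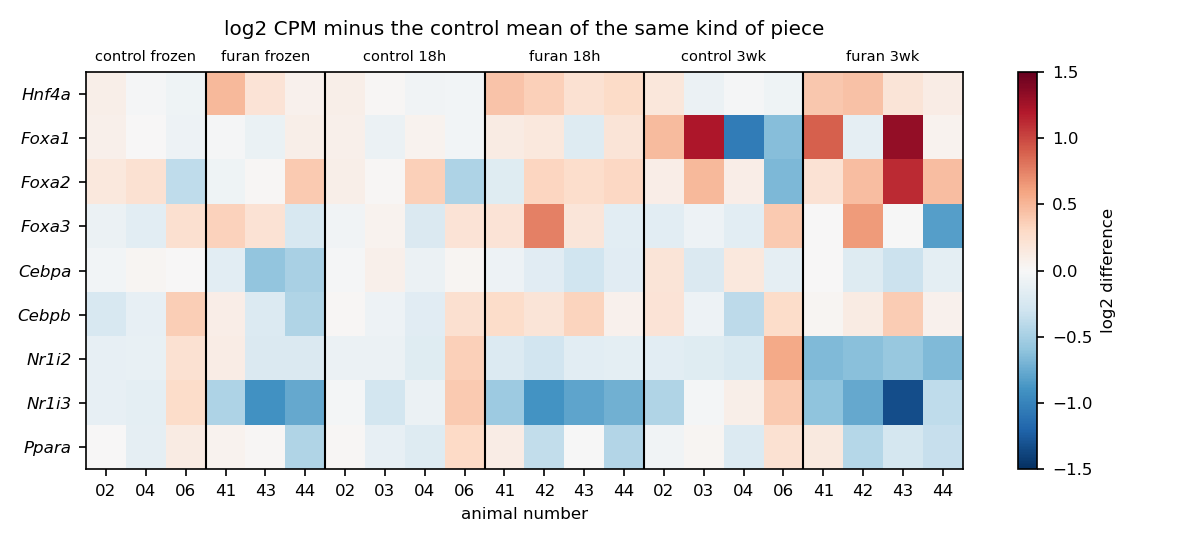
Log2 CPM of each of the 9 factors (rows) in each library (columns, by animal number) minus the mean log2 CPM of the controls of the same kind of piece; red is higher and blue lower. The Nr1i3 row is blue in all furan columns, and on this TMM scale control animal 06 is red for Foxa3, Cebpb, Nr1i2, Nr1i3 and Ppara and blue for Foxa2 in each kind of piece.

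Genes with the pattern most like each factor were taken by Pearson's r of log2 CPM over the 14 fresh-frozen and 18 h libraries, after centring each kind of piece, among 9530 genes with a mean of at least 5 CPM. These libraries share animals, depth and treatment, so r is a description. Nr1i3 was most like Dpyd, which encodes the first enzyme of pyrimidine breakdown (r = 0.973), and Tomm40l (0.967). Hnf4a was most like Cars, a cysteine tRNA ligase gene (0.947), and Slc17a4 (0.946), Cebpa like Ppp1r37 (0.936) and Tecr, of very long chain fatty acid synthesis (0.934), and Foxa2 like Cbs, of cysteine synthesis (0.930), and Sirt6 (0.903). Nr1i2 was most like Por, the electron donor of microsomal cytochromes P450 (0.915), and Snrnp200 (0.912), and Ppara like Yes1 (0.912) and Chd2 (0.905). Foxa3 had Alkbh5 (0.911), Cebpb had D17Wsu92e (0.886) and Foxa1 had Cox15 (0.855) as their nearest genes. Dpyd fell with furan in fresh-frozen (-0.45 ± 0.10, edgeR adjusted p = 0.0234) and 18 h livers (-0.59 ± 0.12, 0.00730), and had -0.06 ± 0.14 after 3 wk. Its fresh-frozen call was lost without control animal 06 or furan animal 43 or 44 (-0.41 to -0.38, adjusted p = 0.0530 to 0.0919), and without control animal 02 its adjusted p was just above the threshold (-0.47). In 1 model of all 6 groups it was lost as well (-0.46, 0.113).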

How the data were processed

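RNA-seq libraries (TruSeq RNA v2 after poly(A) selection, unstranded) were made from pieces of the same livers, per the labels' protocols. The authors deposited whole-number read counts per gene symbol. Per the submitters' processing notes, CASAVA 1.8.2, STAR 2.3.0, featureCounts 1.4.4 and build mm9 were used, and how reads in overlapping genes were counted is not given in the sources used here. Of 24 columns, 22 matched a labelled sample by kind of piece and animal number. The other 2 fresh-frozen columns were not used, and 2 labelled fresh-frozen samples (control 03 and furan 42) were not analysed here. No pair within a group was a duplicate, since the counts of every pair differed beyond sampling noise (chi-square over degrees of freedom at least 9.73).

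Every comparison was fitted on its own libraries with edgeR 4.0.16 in R 4.3.3 (filterByExpr, TMM, quasi-likelihood F test, Benjamini-Hochberg adjustment over all tested genes, threshold 0.05), and SE was derived from the F statistic. CPM uses TMM factors over all 22 libraries. The fits were tested on simulated data: of genes changed 2-fold, 95.9% were recovered in the fresh-frozen (13701 genes run), 86.7% in the 18 h (12723) and 0% in the 3 wk comparison (11896), where 11% of 4-fold changes were. Each simulated gene had the common dispersion of its comparison, so these shares do not hold for genes with less or more spread. Alternatives were DESeq2 1.42.0, RLE scaling, other filters, robust dispersions, 1 model of all 6 groups, thinned counts, each library left out, and the animal as a block for comparisons between pieces. The model of all 6 groups had no term for the animal, so pieces of 1 liver entered it as separate libraries with a shared spread. Pieces of 1 liver are paired per the labels, and deviations from group means correlated at r from 0.390 to 0.506 between fresh-frozen and 18 h partners and from 0.0829 to 0.255 between fresh-frozen and 3 wk partners.

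The members, gene lists and alternatives were chosen with earlier results of these data known. Up to 3 genes per list with the smallest adjusted p in fresh-frozen livers are named, with the reporters Cyp3a11, Cyp2b10, Cyp4a10 and Cyp4a14, and naming every gene called where 5 or fewer moved in a direction was decided after the values were seen. Transcript lengths and overlaps came from GENCODE M21 and promoters from RefSeq, both on GRCm38, matched by symbol. No coordinates were converted.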

Additional observations from a re-analysis of the deposited data

Results flagged for a closer look

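Each of the 9 factors was examined in the groups of 4 libraries, 36 groups in all, for a highest or lowest library set apart from the other 3 by a large part of the group's range (Dixon's test). Chance gives about 1 such group in 20, and 4 were found. Nr1i2 stood at 132.3 CPM in control animal 06 after 18 h, with the other 3 between 91.0 and 97.2 CPM, and at 144.5 CPM in the same animal after 3 wk, with the others between 83.2 and 87.3 CPM. On CPM of the total count, without TMM factors, control animal 06 was the lowest of the 4 for Nr1i2 after 18 h, at 81.5 against 89.1 to 91.0, and still the highest after 3 wk, at 148.6 against 90.6 to 100.6. Its 18 h library had a TMM factor of 0.616 and 37.3% of its counts in Rn45s, which are part of the total count and lower all other genes on that scale. Foxa3 stood at 126.6 CPM in control animal 06 after 3 wk, with the others between 86.4 and 91.5 CPM. Foxa2 stood at 28.6 CPM in furan animal 41 after 18 h, with the others between 38.9 and 40.7 CPM. On CPM of the total count these 2 libraries were again highest and lowest, at 130.2 against 94.3 to 99.6 and 27.0 against 35.8 to 39.4. Of the flagged groups only that of Foxa3 still met the rule on this scale, with a gap of 0.852 of the range. The gap was 0.712 for Foxa2, and 0.793 after 18 h and 0.827 after 3 wk for Nr1i2, which fell short. In 3 of these 4 groups the library came from control animal 06. Without it the log2 fold change of Nr1i2 with furan was -0.08 after 18 h and -0.42 after 3 wk.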

How the results depend on the processing

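Of 612 values of the 9 factors recomputed under other settings in the furan comparisons and in the comparisons of pieces, 579 kept their direction and their side of the threshold, 5 lost and 10 gained a call, and 18 changed sign, none of them while called. Nr1i3 stayed below 0 in all 13 fresh-frozen, 16 FFPE 18 h and 17 FFPE 3 wk settings, and passed in 10, 16 and 1 of them.

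In fresh-frozen livers the 2162 genes past the threshold became 138 in 1 model of all 6 groups, 746 after thinning to the smallest total and 864 to 1620 with 1 library left out. The count of 1 of the 9 factors became 2 with DESeq2, without a filter, with a filter at 5 CPM and with robust dispersions, where Cebpa was added (adjusted p = 0.0108, 0.0492, 0.0497 and 0.0496), 0 in the single model, and 0 to 2 with 1 library left out. After 18 h the 1077 genes became 225 in 1 model, 682 after thinning, 594 with only the 6 animals also fresh-frozen (chosen after seeing the data) and 633 to 1285 with 1 library left out. The 2 factors became 1 in the single model and 1 with those 6 animals, and 2 to 3 with 1 library left out. After 3 wk the 99 genes became 353 with DESeq2, 194 without a filter, 2030 in 1 model, 19 with the 6 animals, 12 without the 2 shallowest libraries (chosen after seeing the data) and 17 to 173 with 1 library left out. The 0 factors became 1 with DESeq2 and 3 in the single model (Hnf4a adjusted p = 0.0338, Nr1i2 0.00610, Nr1i3 0.0101), and stayed 0 with any 1 library left out. The causes of these changes were not tested. Between pieces, the counts of 7 and 5 factors stayed the same in every setting, while with 1 library left out the 3188 genes that differed after 3 wk became 1978 to 4398.

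With the animal as a replicate block, the interaction after 18 h had 2 genes past the threshold and DESeq2 had 1. After 3 wk DESeq2 had 19 and leaving out 1 library gave 0 to 5. The block changed no other call of the 9 factors. It turned the sign of Foxa2 between 18 h and fresh-frozen controls (-0.0019, and -0.068 without a filter) and of the Nr1i3 interaction after 3 wk (-0.00051; -0.037 with DESeq2, -0.036 with RLE scaling and -0.028 without a filter).

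Other values that changed sign did not pass there. In fresh-frozen livers Cebpb was 0.11 after thinning. After 18 h Crebbp was -0.13 after thinning, and with the 6 animals Crebbp was -0.27, Cebpg -0.045 and Thra 0.15. After 3 wk Thra was -0.18 after thinning, Thra -1.01 and Foxa3 -0.23 with the 6 animals, and, without the 2 shallowest libraries, Cebpa was 0.022, Dpyd 0.027, Cebpg 0.036 and Cidec -0.37. With 1 library left out the fresh-frozen log2 fold changes ranged from -0.31 to 0.037 for Cebpb, -0.030 to 0.069 for Foxa1, -0.046 to 0.23 for Foxa2, -0.19 to 0.034 for Nr1i2, -0.17 to 0.060 for Ppara, -0.15 to 0.37 for Cyp2b10 and -0.24 to 0.10 for Cyp4a10. After 18 h they ranged from -0.018 to 0.095 for Cebpg, -0.11 to 0.72 for Crebbp, -0.025 to 0.27 for Ep300 and -0.51 to 0.083 for Thra. After 3 wk they ranged from -0.20 to 0.27 for Foxa3, -0.20 to 0.052 for Cebpg, -0.053 to 0.45 for Crebbp, -0.16 to 0.17 for Cyp4a10, -0.13 to 0.0058 for Dpyd, -0.22 to 0.058 for Klf15 and -0.61 to 2.81 for Thra. Between control pieces they ranged from -0.12 to 0.15 for Foxa2 after 18 h and from -0.16 to 0.17 for Nr1i2 after 3 wk. The interaction ranged from -0.23 to 0.027 for Nr1i2 and -0.20 to 0.11 for Nr1i3 after 18 h, and from -0.17 to 0.15 for Nr1i3 after 3 wk. No simulated 2-fold change was recovered in the 3 wk comparison, which had the smallest totals and a common dispersion of 0.336, against 0.0150 in fresh-frozen and 0.0284 in 18 h livers. Every simulated gene was given this common dispersion, so recovery of genes with less spread was not measured. Among real genes, Tomm40l passed after 3 wk with a log2 fold change of -0.98 (edgeR adjusted p = 0.00615).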
